A study of Mus musculus with 20 samples.

Results

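The epididymal white adipose tissue (eWAT) of 7 obese mice given mulberry twig alkaloids was compared, gene by gene, with that of 7 obese mice given saline, to describe which gene functions rose and which fell beyond Toll-like receptors, chemokines and adhesion. Every gene of the deposited table entered, and 14695 of its 14776 genes reached the mean of 0.1 FPKM over the 14 mice that the test required. All mice were male C57BL/6J, were 6 weeks old when feeding began, and were fasted overnight before the tissue was taken. The HFD mice ate a high-fat diet for 14 weeks and then received saline by stomach tube for 6 weeks on the same diet. The SZ-A mice were kept in the same way but received Ramulus Mori (Sangzhi) alkaloids at 400 mg per kg each day in those 6 weeks. A further 6 mice on maintenance feed (NC) were used only to see whether a change ran with or against the effect of the diet. Messenger RNA of the whole fat pad was sequenced, 1 library a mouse, so every value is a mixture of adipocytes and all other cells of the pad.

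Obese visceral fat is a tissue in which enlarged adipocytes lose part of their lipid-handling and mitochondrial programme while macrophages gather around dying fat cells, take up their lipid in lysosomes and divide in place. Fibroblasts of such fat lay down collagen, which stiffens the pad. SZ-A is a mixture of polyhydroxylated alkaloids, sugar mimics that inhibit α-glucosidases of the gut and are used to lower blood glucose after meals.

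Values are FPKM, fragments per kilobase of gene, scaled to library size, and differences are log2 fold changes of SZ-A minus HFD on log2(FPKM + 1), which understates the change of genes with low values. A gene is said to have risen or fallen where limma gave an adjusted p under 0.05 over all genes tested. Between 13567668 and 19388628 reads per mouse lay on the genes of the table. Some libraries stood apart. NC mouse 6 had an Adipoq (adiponectin) level of 26.6 FPKM, where the other NC mice had between 859 and 2278, so that its content goes against the adipose label. The epithelial cadherin Cdh1 was at 71.1 FPKM in that mouse, had a median of 25.5 FPKM in NC, and stood at 28.4 and 26.1 FPKM in SZ-A mice 2 and 7. It was at most 2.6 FPKM in the other SZ-A mice and at most 0.184 in HFD mice. SZ-A mouse 5 had the most haemoglobin RNA and the largest share of mitochondrial reads, 11.6%, against 1.67% to 2.92% in HFD mice, and HFD mouse 1 had the least adipocyte RNA of its group.

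Of the 14695 genes tested, 1392 rose (9.47%) and 1957 fell (13.3%), 3349 in all (22.8%). The groups did not overlap in 304 genes that were higher (2.07%) and 589 that were lower (4.01%) in every SZ-A mouse. A log2 fold change above 1.5, the limit of the study's methods, was passed by 45 genes that rose (0.306%) and 82 that fell (0.558%). The median change of all genes was 0.03. The split past that limit moved with the settings: a pseudocount of 0.1 gave 189 higher and 148 lower, voom on recovered reads 264 and 194, the epididymis marker level as a covariate 92 and 60, the mitochondrial share as a covariate 25 and 110, and leaving out both SZ-A mice 2 and 7 gave 72 and 65. The mitochondrial share as a covariate, here and below, is the log2 of the summed FPKM of mitochondrial genes, not the percentage of reads. Without HFD mouse 1, 27 rose and 53 fell past the limit. The risers at any size were 902 without HFD mouse 1 and 863 without HFD mouse 5. The fallers past the limit were 52, 51 and 128 without SZ-A mouse 1, 4 or 5, and the risers past it 70 without SZ-A mouse 6. The shares of 9.47% and 13.3% are the background against which the count of each gene list below is read. Lists are described by counts and medians, without a test of the list.

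**Figure D1:**
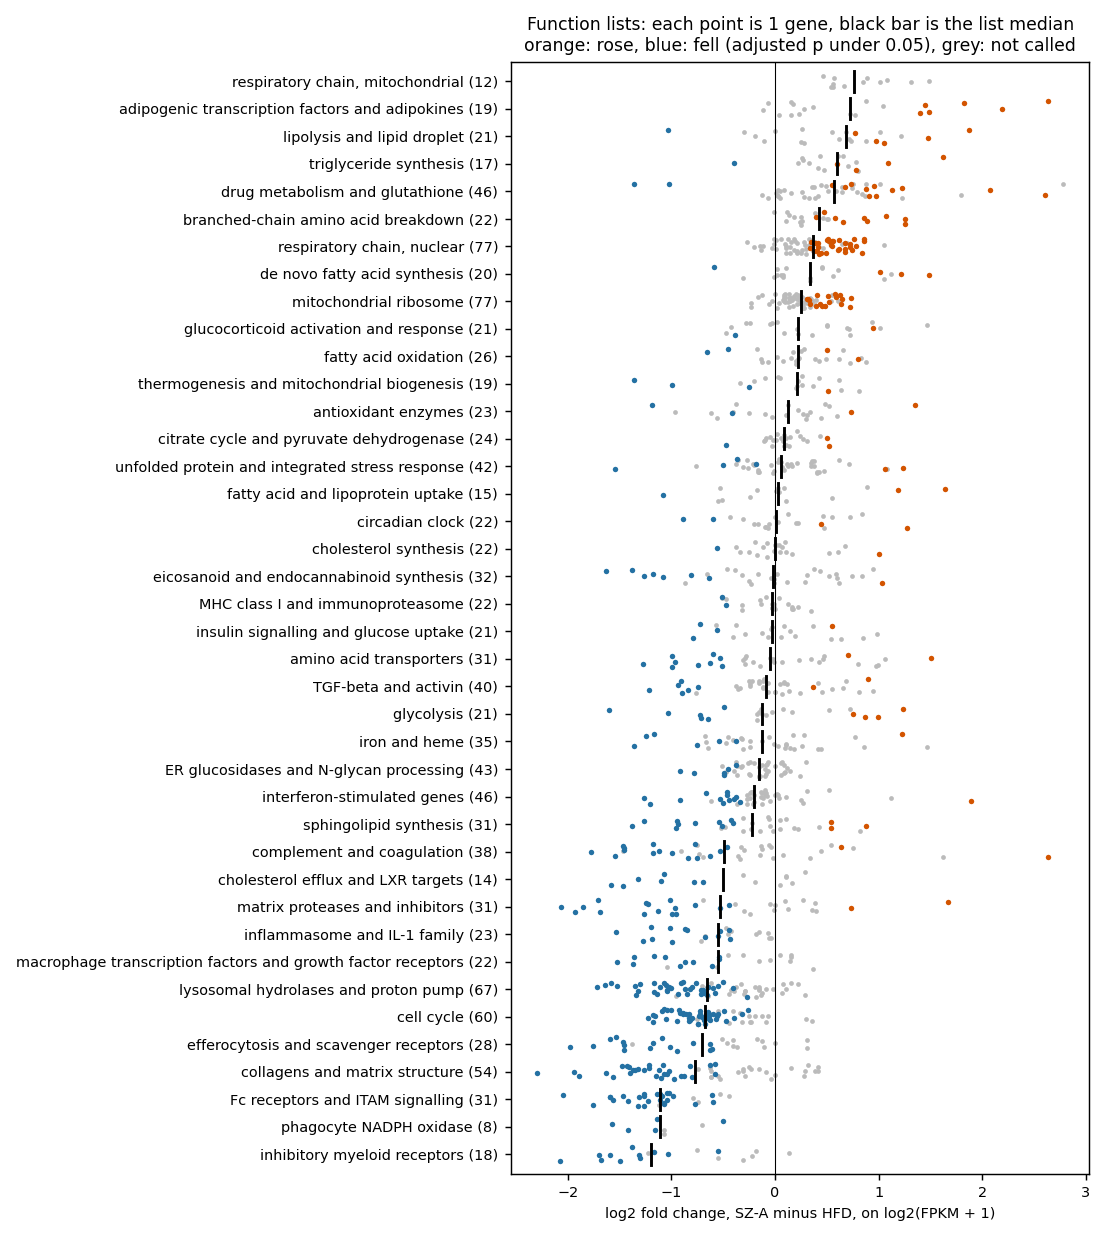
Log2 fold change of SZ-A minus HFD (horizontal axis, on log2(FPKM + 1)) for every tested member of each function list, with the number tested in brackets; orange points rose, blue points fell, grey points were not called, and black bars are list medians. Medians run from -1.20 for inhibitory myeloid receptors to 0.76 for mitochondrially encoded respiratory chain genes, none of which was called.

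Among the largest falls were those of genes by which macrophages sense and swallow material. Cd72, an inhibitory receptor of B cells and macrophages, lay at 0.93 to 5.53 FPKM (median 2.32) in SZ-A mice and 9.2 to 21.5 FPKM (median 13.6) in HFD mice. None of the SZ-A values reached the lowest HFD value (log2 fold change -2.08, SE 0.28, adjusted p = 0.00043, and exact two-sided permutation p = 0.000583, the smallest that 7 against 7 allows). Cd72 was named by a rule that took only genes whose groups did not overlap, so that permutation p was fixed by the choice. The same rule named Folr2, Siglec1, Clec7a and Adgre1, and below Pik3ap1, C3ar1, Col3a1, Lum and Mmp2. It also named the risers Cfd, Alas2, Eci3, Gstm6, Spint2, Isg20 and Hoxb6. For all of these genes, lack of overlap was a condition of the choice and not a result. Folr2, the folate receptor of resident tissue macrophages, lay at 2.74 to 6.93 FPKM (median 4.57) under SZ-A against 13.5 to 30.8 FPKM (median 21.9) under saline, again without overlap (-1.98, SE 0.19, adjusted p = 0.00011). The sialic acid lectin Siglec1 (-1.78, SE 0.16, adjusted p = 9.2e-05) and the fungal glucan receptor Clec7a (-1.76, SE 0.29, adjusted p = 0.0012) fell with no overlap as well. Adgre1, which encodes the macrophage marker F4/80, lay at 34.2 to 122 FPKM (median 50.3) in SZ-A and 139.9 to 258 FPKM (median 215) in HFD mice (-1.86, SE 0.25, adjusted p = 0.00038). In bulk tissue, fewer cells of a type and less RNA per cell cannot be told apart. The whole list of macrophage markers moved with these genes: 16 of 20 fell and 0 rose, with a median change of -1.41, and their summed level was 1502 to 5101 FPKM in SZ-A, 3761 to 9838 in HFD and 95.1 to 919 in NC mice, none of them at 0. SZ-A mice 5 and 6 had the highest macrophage marker levels of their group, and 1 of them was the highest SZ-A mouse in each of the lowered genes named in this paragraph. What share of each fall goes with the macrophage content was not tested.

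Signalling from activating receptors fell nearly as a whole. Of 31 Fc receptor and ITAM pathway genes, 26 fell and 0 rose (median -1.11), against 13.3% of all genes. With the epididymis marker level as a covariate, 17 fell. Fcgr1, the high-affinity receptor for IgG, lay at 2.77 to 10.3 FPKM (median 3.91) in SZ-A mice and 11.1 to 18 FPKM (median 15.1) in HFD mice, without overlap (-1.56, SE 0.21, adjusted p = 0.00037). The adaptor Pik3ap1, which couples receptors to phosphoinositide 3-kinase, was among the largest falls of the whole table (-2.05, SE 0.28, adjusted p = 0.00046). Both catalytic subunits of that kinase in leukocytes fell with no overlap, Pik3cg (-1.09, SE 0.13, adjusted p = 0.0003) and Pik3cd (-1.14, SE 0.18, adjusted p = 0.00098). The receptors that oppose this signal fell too: 11 of 18 inhibitory myeloid receptors fell and 0 rose. Their median of -1.20 was the lowest of the function lists. Lair1, an inhibitory receptor for collagen, lay at 1.43 to 4.79 FPKM (median 2.25) against 7.2 to 17.8 FPKM (median 8.63) (-1.70, SE 0.24, adjusted p = 0.00052), and Clec12a, an inhibitory lectin, fell by 1.68 (SE 0.28, adjusted p = 0.0014) with 6 of 7 SZ-A mice below all HFD mice. Activating and inhibitory members of the pathway thus fell side by side.

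The phagocyte NADPH oxidase makes superoxide in the membrane of the swallowing cell. Cybb, its catalytic subunit, lay at 15.3 to 42.4 FPKM (median 18) under SZ-A and 46.8 to 119 FPKM (median 62.1) under saline without overlap (-1.58, SE 0.25, adjusted p = 0.0011). Its GTPase Rac2 fell by 1.42 (SE 0.31, adjusted p = 0.005), with 5 of 7 SZ-A mice below all HFD mice. In all 5 of 8 oxidase genes fell. That number was 3 without HFD mouse 1, 3 or 5 or SZ-A mouse 7, and 8 without SZ-A mouse 5. It was 3 without both SZ-A mice 2 and 7 or with the epididymis marker level as a covariate.

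Lysosomes digest what phagocytes take up, and their genes made up one of the most uniform groups: 39 of 67 hydrolases, membrane proteins and proton pump subunits fell, 0 rose, and the median was -0.65. The count stayed between 29 and 46 with any 1 HFD or SZ-A mouse left out. Ctsc, the protease cathepsin C, lay at 14.5 to 18.8 FPKM (median 17.1) in SZ-A mice against 25.5 to 37.5 FPKM (median 28.9) in HFD mice (-0.82, SE 0.10, adjusted p = 0.0003). The lysosomal acid phosphatase Acp2 likewise did not overlap (-0.80, SE 0.14, adjusted p = 0.0013). Atp6v1a, the catalytic subunit of the proton pump, lay at 29.9 to 72.4 FPKM (median 38.8) against 70.3 to 132 FPKM (median 87.8), and only SZ-A mouse 6 reached the HFD range (-1.17, SE 0.19, adjusted p = 0.0012). Genes that release stored cholesterol and pass it out of the cell followed: 7 of 14 fell and 0 rose (median -0.50), and 4 fell with the epididymis marker level as a covariate. Among them, Nceh1, which splits cholesterol esters, changed by -1.47, SE 0.30, adjusted p = 0.0037, and Pltp, which transfers phospholipid between lipoproteins, by -1.32, SE 0.22, adjusted p = 0.0014. Pltp had an adjusted p of 0.051 with all 3 groups in 1 fit. Apoc1, an apolipoprotein of the uptake list, went the other way, 28.5 to 166 FPKM (median 42.8) in SZ-A and 6.11 to 28.5 FPKM (median 14.5) in HFD mice (1.64, SE 0.38, adjusted p = 0.0073). Those ranges came close without overlapping, and SZ-A mouse 5 stood above the rest of its group.

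Promoter sequences are shown for lowered phagocyte and lysosomal genes and for a raised enzyme gene, so that the letters searched can be seen in place. RefSeq windows of 250 bases before the transcript start (GRCm38.p6) were found for 10696 of the genes tested, 13681 windows in all. Exact letters were searched on both strands: GAGGAAGT for PU.1, the master factor of macrophages, TCACGTGA for the CLEAR element of lysosomal genes, TTGCNNAA for C/EBP factors of adipocytes, and TCAAGGTCA for ERR receptors, which act on mitochondrial genes. The PU.1 letters stood in 2.46% of all windows, 3.93% of those of genes that fell, 1.23% of those of genes that rose and 4 of 31 windows (12.9%) of the Fc receptor list. The CLEAR letters stood in 1.41% of all windows and 5 of 64 (7.81%) of the lysosomal list. The C/EBP letters stood in 7.59% of all windows, 8.63% of genes that fell, 7.51% of genes that rose and 5 of 26 windows (19.2%) of the adipogenic factor and adipokine list. Lists to which a factor is not usually tied held its letters too. The C/EBP letters stood in 6 of 42 windows of the collagen list (14.3%), 8 of 64 of the lysosomal list (12.5%) and 8 of 69 of the nuclear respiratory chain list (11.6%), the CLEAR letters in 2 of 42 collagen windows (4.76%), and the PU.1 letters in 3 of 69 respiratory chain windows (4.35%). The ERR letters were rare, in 34 of all windows and 1 of 69 of the respiratory chain. These are descriptions of letters, not of binding, and no test was made. The windows below, shortened to the bases outside annotated exons, belong to Cd72, C1qc and Ctsc with the PU.1 letters, Atp6v1a with the CLEAR letters and Gsta3, a gene that rose, with the C/EBP letters. Each is printed 5′ to 3′ on the strand of its gene with the motif, or its reverse complement, in capitals.
Cd72 (chr4:43454629-43454876, minus strand): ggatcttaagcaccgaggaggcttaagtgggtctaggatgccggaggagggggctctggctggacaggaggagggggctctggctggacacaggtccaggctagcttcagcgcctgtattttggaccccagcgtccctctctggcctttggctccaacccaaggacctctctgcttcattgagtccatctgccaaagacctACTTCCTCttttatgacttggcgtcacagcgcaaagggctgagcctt
C1qc (chr4:136893066-136893164, minus strand): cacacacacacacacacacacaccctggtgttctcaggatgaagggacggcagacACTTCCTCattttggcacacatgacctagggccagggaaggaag
Ctsc (chr7:88277835-88278084, plus strand): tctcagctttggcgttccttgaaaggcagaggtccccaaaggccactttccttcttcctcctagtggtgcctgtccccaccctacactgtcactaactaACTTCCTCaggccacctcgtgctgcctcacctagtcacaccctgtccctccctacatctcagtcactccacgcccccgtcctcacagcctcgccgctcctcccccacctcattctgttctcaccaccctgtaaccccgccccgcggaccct
Atp6v1a (chr16:44139306-44139461, minus strand): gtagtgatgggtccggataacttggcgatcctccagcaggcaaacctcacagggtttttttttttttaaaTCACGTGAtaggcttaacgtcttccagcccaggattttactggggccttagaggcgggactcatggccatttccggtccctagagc
Gsta3 (chr1:21240335-21240584, plus strand): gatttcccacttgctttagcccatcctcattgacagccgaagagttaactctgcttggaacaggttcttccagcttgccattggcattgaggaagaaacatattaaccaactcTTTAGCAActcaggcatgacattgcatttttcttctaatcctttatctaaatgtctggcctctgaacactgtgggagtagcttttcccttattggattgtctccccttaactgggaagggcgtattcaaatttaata
In Cd72, C1qc, Ctsc, Atp6v1a and Gsta3 the motif lies 49, 195, 151, 132 and 137 bases before the RefSeq transcript start used. The Gsta3 start was not found in the GENCODE M21 transcripts of the gene. In C1qc 151 of the 250 bases lay in annotated exons, so other transcripts may begin nearer to the motif.

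Receptors for dead cells and lipoproteins fell in 16 of 28 cases, with 0 rises and a median of -0.71. Axl, a receptor kinase that binds dying cells through Gas6, lay at 31.7 to 54.4 FPKM (median 38.2) under SZ-A against 68.6 to 94 FPKM (median 76.8) under saline (-1.01, SE 0.12, adjusted p = 0.0003), and the mannose receptor Mrc1 15.8 to 33.4 FPKM (median 22.8) against 50.7 to 109 FPKM (median 66.5) (-1.54, SE 0.18, adjusted p = 0.0003). Neither overlapped between the groups, though Axl had an adjusted p of 0.057 with all 3 groups in 1 fit.

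Complement and coagulation genes fell more often than they rose. Of 38 such genes 15 fell (39.5%, against 13.3% of all genes), with a median of -0.50. The 2 rises (5.26%) were a smaller share than the 9.47% of all genes. With all 3 groups in 1 fit 9 fell. C1qc, a chain of the recognition molecule C1q, lay at 62 to 210.0 FPKM (median 88.5) in SZ-A and 208 to 349 FPKM (median 291) in HFD mice, with 6 of 7 SZ-A mice below all HFD mice, and its promoter is printed above (-1.45, SE 0.24, adjusted p = 0.0012). C3ar1, the receptor for the C3a fragment, fell without overlap (-1.78, SE 0.29, adjusted p = 0.0012). The 2 that rose were Cfd and C8g. Cfd, adipsin, the protease that starts the alternative pathway and is secreted by adipocytes, had the largest rise by the naming rule: 476 to 2993 FPKM (median 1378) in SZ-A mice against 47.9 to 388 FPKM (median 262) in HFD mice (2.63, SE 0.52, adjusted p = 0.0033). All SZ-A mice exceeded all HFD mice, yet the NC mice other than mouse 6 stood higher still, at 4730 to 13266 FPKM. C8g, a chain of the terminal complex, rose by 0.64 (SE 0.11, adjusted p = 0.0017) with no overlap.

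The inflammasome and interleukin-1 family showed 13 falls among 23 genes and 0 rises (median -0.55). Nlrp3, the sensor that activates caspase-1, was a low transcript that lay at 0.177 to 0.566 FPKM (median 0.335) against 0.681 to 1.28 FPKM (median 1.02), without overlap (-0.55, SE 0.09, adjusted p = 0.0011). The bacterial sensor Naip2 (-1.27, SE 0.16, adjusted p = 0.00032) and the interleukin-33 receptor Il1rl1 (-1.20, SE 0.19, adjusted p = 0.0011) also fell without overlap. Interferon-stimulated genes moved less: 12 of 46 fell and 1 rose, with a median of -0.21, and 7 fell without HFD mouse 3, 5 or 7, without SZ-A mouse 3, or without both SZ-A mice 2 and 7. With the epididymis marker level as a covariate, or with all 3 groups in 1 fit, 6 fell. Oasl2, a relative of the antiviral oligoadenylate synthases, changed by -0.91, SE 0.14, adjusted p = 0.00081. The single riser, the exonuclease gene Isg20, is described below with other genes that were highest in SZ-A mice 2 and 7. Of 22 genes of MHC class I and the immunoproteasome 2 fell, H2-T23 and H2-M3, and 0 rose (median -0.03).

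Lineage factors and growth factor receptors of macrophages included 11 falls among 22 genes and 0 rises, or 4 falls with the epididymis marker level as a covariate. Csf1r, the receptor on which macrophage survival depends, lay at 39.9 to 96.8 FPKM (median 48.7) in SZ-A and 112 to 175 FPKM (median 146) in HFD mice (-1.37, SE 0.19, adjusted p = 0.00043). Its ranges did not overlap between the groups. The mast cell and granulocyte markers had the lowest median of the marker lists, -1.46, close to the -1.41 of macrophage markers. Of the 8 tested 4 fell, and 12 further members were not tested. Cpa3, a mast cell carboxypeptidase chosen after its values were seen, was 1.22 to 7.59 FPKM (median 2.88) in SZ-A and 6.46 to 96.9 FPKM (median 31.3) in HFD mice (-2.64, SE 0.56, adjusted p = 0.0046), with 6 of 7 SZ-A mice below all HFD mice. The HFD mice themselves ranged widely in this gene. Markers of T and NK cells moved less, with falls in 4 of 19 genes and a median of -0.14. Of the 7 tested markers of B and plasma cells 3 fell, with a median of -1.03, and 9 further members were not tested. Rises numbered 0 in both lists. Those counts were 2 and 0 without HFD mouse 1, 2 and 1 without HFD mouse 3 or SZ-A mouse 3, 4 or 6, and smaller than here without other single mice as well.

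The cell cycle was the group with the largest share of falls after Fc signalling and macrophage markers: 45 of 60 genes fell, 0 rose, the median was -0.68, and with any 1 HFD or SZ-A mouse left out between 40 and 49 fell. Mcm6, a part of the replication helicase, lay at 4.78 to 9.44 FPKM (median 5.41) under SZ-A and 9.67 to 18.8 FPKM (median 13.4) under saline (-1.18, SE 0.16, adjusted p = 0.00038). Top2a, which untangles DNA in dividing cells, lay at 0.818 to 3.15 FPKM (median 2.22) against 4.14 to 7.06 FPKM (median 6.11) (-1.23, SE 0.18, adjusted p = 0.00074), and Racgap1, which is needed for cytokinesis, changed by -0.83, SE 0.14, adjusted p = 0.0012. The groups were separate in all of these, and SZ-A mouse 6 was the highest of its group.

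**Figure D2:**
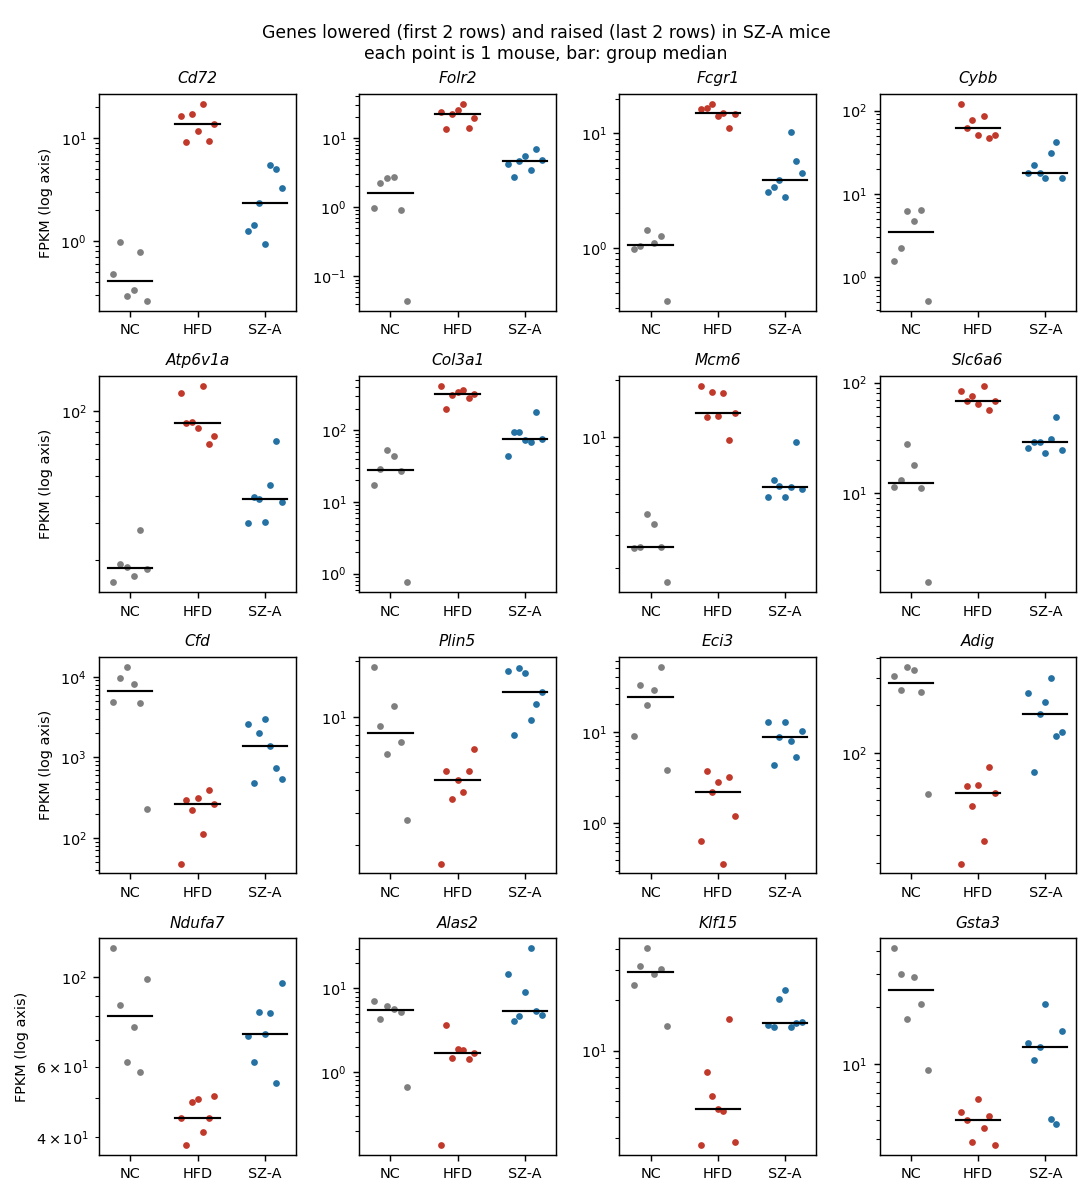
FPKM of 16 genes in each mouse (log axis), with NC in grey, HFD in red and SZ-A in blue and bars at the group medians. In the upper rows every SZ-A median lies between those of HFD and NC, with Cd72 at a median of 2.32 FPKM in SZ-A against 13.6 in HFD. In the lower rows Cfd stands at 1378 against 262 FPKM. NC mouse 6, the last grey point, is the lowest NC mouse in each panel of the lower rows but that of Ndufa7.

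Connective tissue genes fell together. Of 54 collagens and other structural matrix genes 30 fell and 0 rose, with a median of -0.77. Fitted with all 3 groups, 16 fell. Col3a1, the fibrillar collagen III chain, lay at 43.5 to 182 FPKM (median 76.9) in SZ-A and 198 to 423 FPKM (median 317) in HFD mice (-1.89, SE 0.25, adjusted p = 0.00038), and the fibril-binding proteoglycan Lum lay at 24 to 58.1 FPKM (median 28.2) against 86 to 252 FPKM (median 131) (-1.94, SE 0.25, adjusted p = 0.00037). SZ-A mouse 6 was the highest treated mouse in both, but still below every HFD mouse. Col5a2 (-1.48, SE 0.17, adjusted p = 0.0003) and Col6a3 (-1.37, SE 0.17, adjusted p = 0.0003), which encode chains of collagens V and VI, and the collagen cross-linking enzyme Loxl2 (-1.27, SE 0.15, adjusted p = 0.0003) fell with no overlap too. Beside these, 13 of 20 markers of adipocyte progenitors and fibroblasts fell and 0 rose (median -0.69), or 8 with all 3 groups in 1 fit. Their mean level on the log2 scale was 3.73 to 4.27 in SZ-A and 4.62 to 5.0 in HFD mice, whereas their summed level overlapped, at 1586 to 5635 and 3274 to 4721 FPKM. No marker was at 0, and the part of fibroblast content in the matrix falls was not tested.

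Enzymes that cut the matrix fell beside the matrix itself: 16 of 31 proteases and inhibitors fell and 2 rose. The gelatinase Mmp2 lay at 21.9 to 56 FPKM (median 32.2) under SZ-A and 92.9 to 174 FPKM (median 120.3) under saline (-1.85, SE 0.19, adjusted p = 0.00011). The metallopeptidase Adam19 changed by -1.13, SE 0.09, adjusted p = 5.3e-05, the smallest adjusted p of the genes named here. The exceptions were Timp4, an inhibitor of such enzymes, at 23.7 to 70.2 FPKM (median 33.8) under SZ-A against 3.69 to 21.9 FPKM (median 14.2) (1.67, SE 0.34, adjusted p = 0.0035), and Mmp9, the other gelatinase, at 1.51 to 3.44 FPKM (median 1.63) against 0.516 to 1.12 FPKM (median 0.829) (0.73, SE 0.15, adjusted p = 0.0035). In both the lowest SZ-A value lay above the highest HFD value, and both lost the call when all 3 groups were fitted together (adjusted p = 0.060 and 0.14). Of 40 genes of the TGF-β and activin family 6 fell (15.0%), a share near the 13.3% of all genes. The 2 that rose were Bmp4 and Smad9, and 3 fell with all 3 groups in 1 fit. Tgfbr2, a receptor for TGF-β, fell with no overlap (-0.90, SE 0.12, adjusted p = 0.00043), and Bmp4, a ligand that commits progenitors to the fat lineage, rose in 6 of 7 mice above all HFD mice (0.90, SE 0.20, adjusted p = 0.0062). The rises of this family numbered 4 without HFD mouse 6 or 7, and 5 without SZ-A mouse 5 or without both SZ-A mice 2 and 7.

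Smaller metabolic groups were read against the 13.3% of all genes that fell. Among 35 iron and heme genes 6 fell (17.1%), a share near that background, and 1 rose, Alad of heme synthesis. The endosomal iron reductase Steap3 lay at 11.5 to 24 FPKM (median 13.1) in SZ-A against 24.9 to 41.4 FPKM (median 32.2) in HFD mice (-1.17, SE 0.15, adjusted p = 0.00035), the phagosomal metal pump Slc11a1 changed by -1.24, SE 0.33, adjusted p = 0.015, and the heme-degrading enzyme Hmox1 by -1.36, SE 0.38, adjusted p = 0.019. Without both SZ-A mice 2 and 7, or with all 3 groups in 1 fit, 3 of the list fell, with the epididymis marker level as a covariate 2, and without those mice Hmox1 had an adjusted p of 0.051. With that covariate Slc11a1 and Hmox1 were no longer called (adjusted p = 0.12 and 0.14). Among 31 sphingolipid genes 10 fell (32.3%) and 3 rose, or 5 or 6 fell without HFD mouse 1, 3 or 5 or SZ-A mouse 3, 4 or 7, and 6 with the epididymis marker level as a covariate. Asah1, the lysosomal ceramidase, was 38.4 to 62.4 FPKM (median 42.2) against 66.7 to 136 FPKM (median 87.5) without overlap (-0.93, SE 0.16, adjusted p = 0.0017). Of 32 eicosanoid and endocannabinoid genes 7 fell (21.9%) and 1 rose: the prostaglandin E2 receptor Ptger4 (-0.64, SE 0.11, adjusted p = 0.0019) and the cannabinoid receptor Cnr2 (-1.18, SE 0.23, adjusted p = 0.0029) were among the falls. Of 31 amino acid transporters 9 fell (29.0%) and 2 rose, Slc1a1 and Slc43a1. Slc6a6, the taurine carrier, lay at 23 to 49 FPKM (median 28.8) against 56.2 to 94.2 FPKM (median 68.4) (-1.27, SE 0.16, adjusted p = 0.00031), and Slc7a7, an exchanger of cationic amino acids, changed by -0.74, SE 0.10, adjusted p = 0.00048, both with separate groups. Gatm, the first enzyme of creatine synthesis, fell without overlap as well, at 2.65 to 7.14 FPKM (median 3.75) in SZ-A and 8.79 to 15.4 FPKM (median 11.8) in HFD mice (-1.36, SE 0.17, adjusted p = 0.0003), beside the creatine carrier Slc6a8.

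Since the alkaloids inhibit α-glucosidases, the endoplasmic reticulum glucosidases and the enzymes of N-glycan processing were listed. Of 43 genes 6 fell (14.0%), a share near the 13.3% of all genes, and 0 rose, with a median of -0.15. The count was 13 without SZ-A mouse 2 and 18 without both SZ-A mice 2 and 7, and 16 with the epididymis marker level as a covariate. The Golgi enzymes Mgat5, which adds a branch to N-glycans, and Man2a1, a mannosidase, changed by -0.92, SE 0.15, adjusted p = 0.0012 and -0.78, SE 0.14, adjusted p = 0.0018. Man2a1 had an adjusted p of 0.17 with all 3 groups in 1 fit. Values of the glucosidases themselves are not reported here. Of 21 glycolysis genes 6 fell (28.6%) and 4 rose (19.0%). The leukocyte hexokinase Hk3 lay at 8.47 to 41 FPKM (median 14.7) in SZ-A and 30.6 to 92 FPKM (median 47.3) in HFD mice (-1.60, SE 0.35, adjusted p = 0.0055), and the platelet-type phosphofructokinase Pfkp changed by -0.49, SE 0.13, adjusted p = 0.014. The lactate dehydrogenase subunit Ldhb rose, with 6 of 7 SZ-A mice above all HFD mice (1.24, SE 0.29, adjusted p = 0.0088). Hk2 and Eno3 rose as well, and Pgk1, Pgam1 and Pkm fell. The falls numbered 3 without HFD mouse 1, 4 or 5 or SZ-A mouse 1, and with either covariate there were 2 falls and 2 rises. With the epididymis marker level as a covariate Pfkp and Ldhb lost their calls (adjusted p = 0.13 and 0.079), and Pfkp also with all 3 groups in 1 fit (adjusted p = 0.17) and with the mitochondrial share (adjusted p = 0.056).

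On the side of the rises, mitochondria gave the longest lists. Of 77 nuclear genes of the respiratory chain 31 rose and 0 fell, with a median of 0.36, against 9.47% of all genes. The count was 20, 19, 17 and 17 without HFD mouse 1, 3, 5 or 7 and 17 without SZ-A mouse 3. It was 6 with the mitochondrial share as a covariate and 16 with all 3 groups in 1 fit. Ndufa7, a subunit of complex I, lay at 54.5 to 96.7 FPKM (median 72.3) in SZ-A and 38.3 to 50.8 FPKM (median 44.7) in HFD mice without overlap (0.68, SE 0.13, adjusted p = 0.0024). Ndufb9, another subunit, rose by 0.83 (SE 0.16, adjusted p = 0.003), with 6 of 7 SZ-A mice above all HFD mice. All 12 mitochondrially encoded genes were higher in the mean, by a median of 0.76, but 0 of them were called by limma or by voom. At an unadjusted p under 0.05 the counts were 4 and 6, and without SZ-A mouse 6 the first was 5 at the adjusted p. In these genes SZ-A mice spread wider than HFD mice in their summed level, from 12130.0 to 96806 FPKM against 13988 to 22809. Of 77 mitochondrial ribosome genes 18 rose and 0 fell (median 0.25), between 8 and 29 with 1 mouse left out. That number lay at 11 or below without HFD mouse 2, 3, 5, 6 or 7 or SZ-A mouse 1, 3, 4 or 7, and at 29 without SZ-A mouse 2. It was 5 with the mitochondrial share as a covariate and 9 with all 3 groups in 1 fit. Mrps7, of the small subunit, lay at 18 to 39 FPKM (median 28.9) against 14.5 to 24.2 FPKM (median 17.1) (0.64, SE 0.15, adjusted p = 0.0082). Of 24 genes of the citrate cycle and pyruvate dehydrogenase 2 rose, Suclg2 and Mpc2, and 1 fell, Me2. Members that are named without values, here and below, were chosen after their values were seen.

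Breakdown of branched-chain amino acids, which in adipocytes feeds lipid synthesis, had 9 rises among 22 genes and 0 falls (median 0.43). Without HFD mouse 1 or 5 or SZ-A mouse 1, 3 or 4 it had 4 or 5, with all 3 groups in 1 fit 5 and with the mitochondrial share as a covariate 3. Bckdhb, a subunit of the rate-limiting dehydrogenase, lay at 18.3 to 86.2 FPKM (median 32.3) under SZ-A and 7.91 to 21.3 FPKM (median 14.7) under saline, with 5 of 7 SZ-A mice above all HFD mice (1.25, SE 0.31, adjusted p = 0.01), and Ivd, of leucine breakdown, rose by 0.89 (SE 0.23, adjusted p = 0.014). Bckdhb had an adjusted p of 0.063 with the mitochondrial share as a covariate.

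Lipid storage and release rose in part. Of 17 triglyceride synthesis genes 4 rose and 1 fell (median 0.59), of 21 genes of lipolysis and the lipid droplet 5 rose and 1 fell (median 0.69), and of 20 genes of fatty acid synthesis 3 rose and 1 fell (median 0.34). These counts were small and moved with single mice: 2 to 6 rose in triglyceride synthesis and 2 to 8 in lipolysis, the lowest without HFD mouse 1 or 5 among others and the highest in lipolysis without SZ-A mouse 2. Without both SZ-A mice 2 and 7, 9 of the 21 lipolysis genes rose, with the epididymis marker level as a covariate 10, and with all 3 groups in 1 fit 2. The risers were Gpat3, Gpat4, Dgat1 and Pck1 in triglyceride synthesis, G0s2, Plin5, Fitm2, Abhd6 and Adrb3 in lipolysis, and Acacb, Mlxipl and Thrsp in fatty acid synthesis. The droplet proteins went in opposite directions. Plin5, which ties droplets to mitochondria, lay at 7.94 to 18.5 FPKM (median 13.6) in SZ-A and 1.59 to 6.68 FPKM (median 4.53) in HFD mice, without overlap (1.48, SE 0.23, adjusted p = 0.00097). Plin2, the droplet coat of lipid-laden macrophages and other cells, lay at 174 to 600.3 FPKM (median 301) against 483 to 896 FPKM (median 638) and fell (-1.03, SE 0.27, adjusted p = 0.014). Pck1, which makes the glycerol backbone from pyruvate, lay at 215 to 1208 FPKM (median 504) against 54 to 324 FPKM (median 202) (1.62, SE 0.44, adjusted p = 0.018), and the glucose-sensing factor Mlxipl rose by 1.02 (SE 0.27, adjusted p = 0.014). In Pck1 and Mlxipl alike 5 of 7 SZ-A mice were above all HFD mice. With all 3 groups in 1 fit Plin2 and Pck1 were not called (adjusted p = 0.20 and 0.12). Plin2 was not called with the epididymis marker level as a covariate either (adjusted p = 0.12), nor Mlxipl with the mitochondrial share (adjusted p = 0.072).

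Of 26 fatty acid oxidation genes 2 rose, the isomerases Eci1 and Eci2, and 2 fell, Cpt1a and Hadha, while 20 were higher and 6 lower in the mean, called or not (median 0.22). The rises numbered 6 without SZ-A mouse 5 or without both SZ-A mice 2 and 7, and 4 without SZ-A mouse 2 or with the epididymis marker level as a covariate. With all 3 groups in 1 fit 3 rose, and leaving out any other single mouse but HFD mouse 4 or 6 gave 1. The falls were 2 with any 1 mouse left out, and 1 with the epididymis covariate or all 3 groups. Hadha, of the mitochondrial trifunctional protein, lay at 21.2 to 30.4 FPKM (median 27.4) in SZ-A and 31.7 to 39.9 FPKM (median 35.4) in HFD mice and fell with no overlap (-0.45, SE 0.10, adjusted p = 0.0073; adjusted p = 0.054 with the epididymis covariate). Eci3, an enoyl-CoA isomerase of peroxisomes that stood outside the list, was among the largest rises, 4.33 to 12.9 FPKM (median 8.86) against 0.362 to 3.74 FPKM (median 2.19), with separate groups (1.77, SE 0.30, adjusted p = 0.0014).

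Adipocyte regulators and hormones gave 6 rises and 0 falls among 19 genes, with a median of 0.73. Without both SZ-A mice 2 and 7 the rises were 12, and with the epididymis marker level as a covariate 10. Klf15, a factor of amino acid and lipid metabolism, lay at 13.8 to 23 FPKM (median 14.7) in SZ-A and 2.74 to 15.4 FPKM (median 4.46) in HFD mice (1.45, SE 0.27, adjusted p = 0.0024), where HFD mouse 6 alone reached into the treated range. Adig, adipogenin, was 75.9 to 297 FPKM (median 175) against 19.8 to 81.3 FPKM (median 55.8) (1.82, SE 0.33, adjusted p = 0.0021), and the hormone resistin, Retn, 85 to 495 FPKM (median 281) against 13.9 to 103 FPKM (median 55.8) (2.19, SE 0.46, adjusted p = 0.0043), with 6 of 7 SZ-A mice above all HFD mice in both. Of the 19 adipocyte markers only these 2, Cfd and Adrb3 were called (median 0.95), and the markers at their summed level were 6295 to 20794 FPKM in SZ-A, 1948 to 8924 in HFD and 692 to 28780.0 in NC mice. The called adipocyte markers were 8 without HFD mouse 6, 9 without SZ-A mouse 2 and 15 without both SZ-A mice 2 and 7. The part of adipocyte RNA content in the rises of this and the preceding metabolic groups was not tested. Vessels showed 5 rises among 20 endothelial markers and 0 falls, and 4 rises and 2 falls among 18 markers of smooth muscle and pericytes. The endothelial count was 0 without HFD mouse 1 or 5 or SZ-A mouse 1 and 8 without SZ-A mouse 2, and that of smooth muscle was 1 without HFD mouse 1 or 5. With the mitochondrial share as a covariate, 0 endothelial markers rose.

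**Figure D3:**
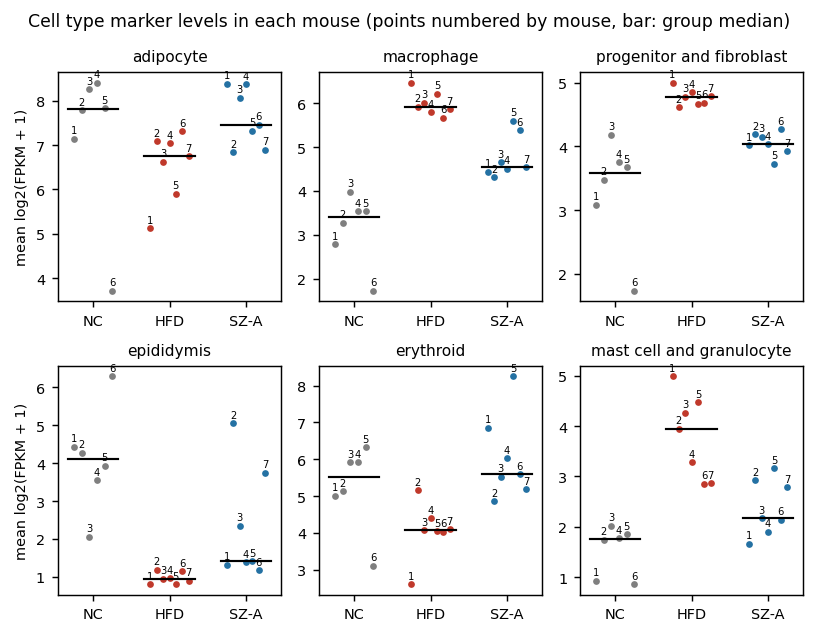
Mean log2(FPKM + 1) of marker lists in each mouse, numbered within its group, with bars at the group medians. SZ-A mice lie below HFD mice for macrophages, SZ-A mice 5 and 6 being the highest treated mice, and SZ-A mice 2 and 7 lie apart in the epididymis list, of which 4 of 44 genes were tested.

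Enzymes of drug metabolism and glutathione conjugation rose in 11 of 46 cases and fell in 2 (median 0.57), with 5 to 19 rises when 1 mouse was left out: 5 or 6 without HFD mouse 1, 3 or 5 or SZ-A mouse 1, 3 or 4, and 19 without SZ-A mouse 5. With all 3 groups in 1 fit 3 rose, and with the mitochondrial share as a covariate 6. The glutathione transferase genes that rose included Gstm4 (0.96, SE 0.26, adjusted p = 0.015) and Gsta3, which lay at 4.78 to 20.9 FPKM (median 12.3) in SZ-A and 3.7 to 6.52 FPKM (median 5.03) in HFD mice (0.97, SE 0.26, adjusted p = 0.016). Cyp1b1, a steroid- and xenobiotic-metabolizing cytochrome, fell with no overlap (-1.03, SE 0.18, adjusted p = 0.0014). Antioxidant selenoproteins split: Gpx4, which protects membranes from lipid peroxides, lay at 242 to 694 FPKM (median 456) against 201 to 315 FPKM (median 267) (0.73, SE 0.21, adjusted p = 0.022), and Selenop, the selenium carrier, 189 to 622 FPKM (median 482) against 815 to 1383 FPKM (median 851) (-1.19, SE 0.25, adjusted p = 0.0047). Among the 23 antioxidant genes 2 rose, Gpx3 and Gpx4, and 2 fell, Prdx4 and Selenop. Without SZ-A mouse 5, 7 rose. With the epididymis marker level as a covariate Gstm4 and Gsta3 were not called (adjusted p = 0.092 and 0.078), and with all 3 groups in 1 fit Gstm4, Cyp1b1 and Selenop were not (adjusted p = 0.057, 0.11 and 0.068). Gpx4 had an adjusted p of 0.10 with the mitochondrial share as a covariate.

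Red cell genes were the only list in which every tested gene rose, 6 of 6 tested with 8 listed, with a median of 2.1. Alas2, the first enzyme of erythroid heme synthesis, lay at 4.14 to 30.2 FPKM (median 5.44) in SZ-A and 0.135 to 3.7 FPKM (median 1.68) in HFD mice (1.85, SE 0.39, adjusted p = 0.0045). Hbb-bs, a β-globin chosen after its values were seen, lay at 155 to 5627 FPKM (median 440.2) against 29.6 to 213 FPKM (median 124) (2.41, SE 0.65, adjusted p = 0.017). SZ-A mouse 5 was far the highest in both, but the 6 genes still rose without it. With the mitochondrial share as a covariate 2 of 6 rose, and Hbb-bs had an adjusted p of 0.10. The summed level of the 6 genes was 372 to 9453 FPKM in SZ-A, 58.9 to 541 in HFD and 89.0 to 1722 in NC mice. The part of blood content in the other rises was not tested.

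Some of the largest rises were greatest in SZ-A mice 2 and 7. Gstm6, a glutathione transferase, lay at 3.13 to 118 FPKM (median 6.74) in SZ-A and 0.488 to 1.95 FPKM (median 1.13) in HFD mice (2.61, SE 0.65, adjusted p = 0.011), and Spint2, a protease inhibitor of epithelia, 4.64 to 88 FPKM (median 8.5) against 1.72 to 4.53 FPKM (median 2.65) (2.18, SE 0.54, adjusted p = 0.011). Isg20 and the homeobox gene Hoxb6 rose by 1.90 (SE 0.47, adjusted p = 0.011) and 1.70 (SE 0.48, adjusted p = 0.02). In all of these SZ-A mice 2 and 7 were the highest, the mice with Cdh1 above 26 FPKM. Cdh1 was at 2.59 FPKM in SZ-A mouse 3 and at most 0.0471 in SZ-A mice 1, 4, 5 and 6. Those mice too were above every HFD mouse in the genes named, as the naming rule required. Left without those mice the rises were smaller and still called: 1.58 for Gstm6, 1.32 for Spint2, 1.13 for Isg20 and 0.93 for Hoxb6 (adjusted p between 0.0017 and 0.0078). With the epididymis marker level as a covariate, Isg20, Gstm6 and Hoxb6 were no longer called (adjusted p = 0.080, 0.068 and 0.18). With the mitochondrial share as a covariate, Isg20, Spint2 and Hoxb6 had adjusted p-values of 0.063, 0.050 and 0.10, and with all 3 groups in 1 fit Gstm6 and Hoxb6 had 0.059 and 0.084. Of the 4 epididymis markers tested 1 rose, Adgrg2, and their summed level was 6.14 to 169.6 FPKM in SZ-A, 3.52 to 7.64 in HFD and 36.2 to 562 in NC mice. The part of epididymal tissue in these rises was not tested.

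Other regulatory lists had few calls, and those counts moved with the settings. Of 21 insulin signalling genes 1 rose and 3 fell (median -0.03): the receptor Insr changed by 0.55, SE 0.16, adjusted p = 0.023, and had an adjusted p of 0.051 without HFD mouse 1 or HFD mouse 5, while the kinase Akt1 changed by -0.56, SE 0.14, adjusted p = 0.0095. Insr was not called with all 3 groups in 1 fit (adjusted p = 0.078), nor Akt1 with the epididymis covariate (adjusted p = 0.080). The phosphatase Ptpn1 and the ubiquitin ligase Cbl, which both dampen receptor signals, were the other falls. The rises were 3 without SZ-A mouse 2 or 5 and 4 without both SZ-A mice 2 and 7. Cholesterol synthesis had 1 rise, Fdft1, and 1 fall, Dhcr7, among 22 genes, but 3 falls without SZ-A mouse 2, 5 without both SZ-A mice 2 and 7 and 6 with the epididymis covariate. The circadian clock had 2 rises and 2 falls among 22 genes, and the falls were Arntl and Npas2. Without HFD mouse 2 or SZ-A mouse 5 there were 5 rises. Of 21 genes of glucocorticoid activation and response, Hsd11b1 rose and Errfi1 fell, and with 1 mouse left out 0 to 4 rose and 0 to 2 fell. In the unfolded protein and integrated stress response 2 of 42 genes rose, Phgdh and Sesn2, and 4 fell, Atf6, Atf3, Aldh1l2 and Sel1l. Without both SZ-A mice 2 and 7, 8 rose and 6 fell, with the epididymis covariate 6 and 5, and without SZ-A mouse 2 alone 5 rose. With the mitochondrial share as a covariate 1 fell. Sesn2, a stress-induced sensor of leucine, rose by 1.06 (SE 0.25, adjusted p = 0.0089). Of 19 genes of thermogenesis and mitochondrial biogenesis 1 rose, the nuclear receptor gene Esrrg, and 3 fell, the coactivator gene Ppargc1b with Gatm and Slc6a8. Those rises were 0 to 4, and the falls 1 to 4, with 1 mouse left out.

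By RT-PCR of eWAT the study reported higher transcripts of Ppara, Pnpla2 (Atgl), Lipe (Hsl), Cpt1a and Il4 in SZ-A than in HFD mice. Some of these, and further enzymes and serum factors, it followed as protein, and the transcripts of all were looked up here. Of these, Acacb, acetyl-CoA carboxylase 2, rose (1.22, SE 0.35, adjusted p = 0.021), and Cpt1a, the gate of fatty acids into mitochondria, fell with no overlap, at 34.9 to 54.7 FPKM (median 42.2) in SZ-A and 59.4 to 80.1 FPKM (median 68.8) in HFD mice (-0.66, SE 0.12, adjusted p = 0.0019). Angpt2, an angiopoietin of vessel remodelling, also fell (-0.70, SE 0.19, adjusted p = 0.018). With all 3 groups in 1 fit none of these 3 was called (adjusted p = 0.10 for Acacb, 0.076 for Cpt1a and 0.095 for Angpt2). Acacb had an adjusted p of 0.051 with the mitochondrial share as a covariate, and Angpt2 0.13 with the epididymis marker level. The lipases Pnpla2 and Lipe were higher in the mean but not called, with log2 differences of 0.73 (SE 0.34, adjusted p = 0.12) and 1.01 (SE 0.36, adjusted p = 0.053). Both were called without SZ-A mouse 2 (adjusted p = 0.045 and 0.020), and Lipe also without HFD mouse 6 (adjusted p = 0.037). The epididymis covariate gave both a call too (adjusted p = 0.0345 and 0.021). Adipoq stood at 1.04 (SE 0.42, adjusted p = 0.084), Acaca at 0.46 (SE 0.28, adjusted p = 0.24) and Il4 at -0.14 (SE 0.15, adjusted p = 0.52). Ppara, the fatty acid sensor, was not called at 0.43 (SE 0.20, adjusted p = 0.13), but was without SZ-A mouse 5 (adjusted p = 0.032). Cpt1a thus fell here where the study's RT-PCR gave a rise, and Il4 showed no rise. The cause of that difference was not tested. Leptin, Lep, had the difference nearest 0 of these genes: 109 to 632 FPKM (median 401) in SZ-A and 125 to 695 FPKM (median 339) in HFD mice, a difference of 0.04 (SE 0.40, adjusted p = 0.96) that ran from -0.21 to 0.32 with 1 mouse left out. NC mice had 1.17 to 189 FPKM.

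**Figure D4:**
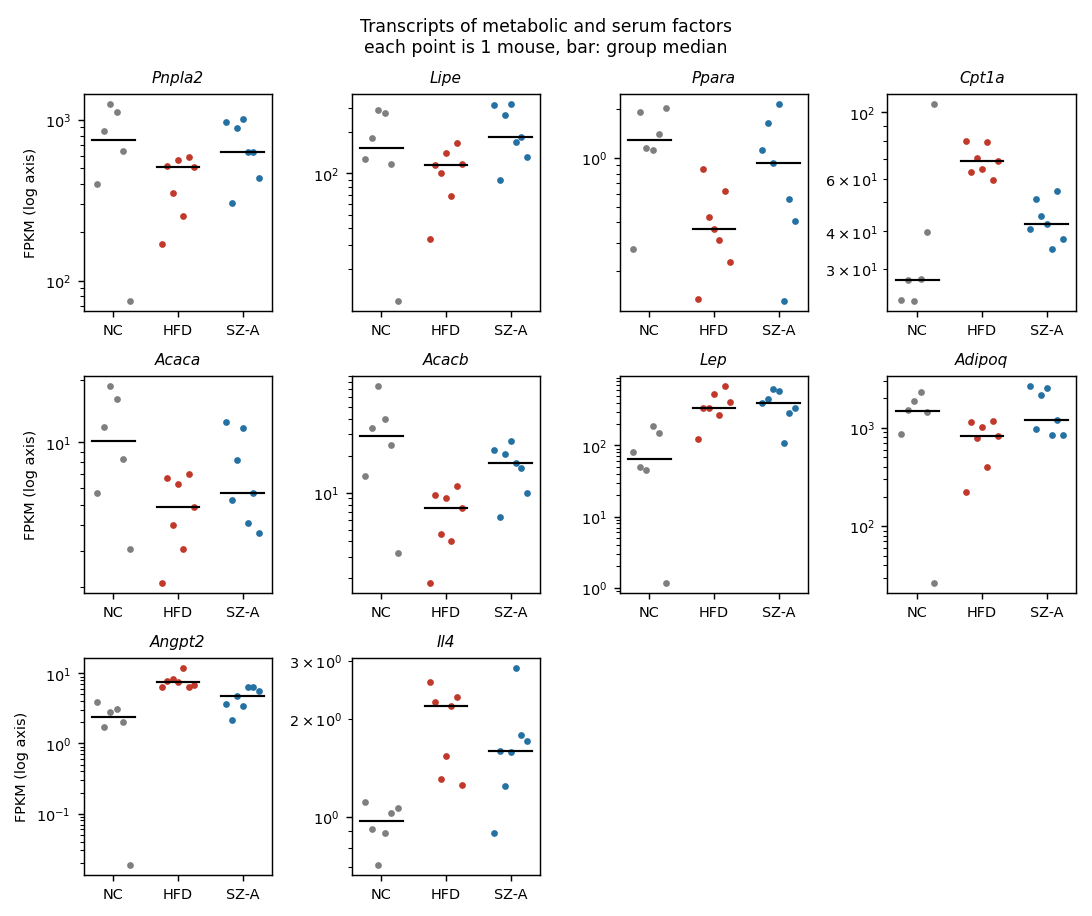
FPKM in each mouse (log axis) of 10 transcripts that the study followed by RT-PCR or through their protein, with bars at the group medians. Cpt1a is lower in every SZ-A mouse (34.9 to 54.7 FPKM) than in any HFD mouse (59.4 to 80.1), while Lep spans similar ranges in both.

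Changes that do not simply reverse the diet were sought by fixed rules, with each group's values set side by side because the comparisons share mice. The SZ-A mice were above both HFD and NC in 16 genes by limma (0.109% of those tested) and 10 by voom, and below both in 0 (0%) by either. At an unadjusted p under 0.05 in both fits, 24 were below both by limma and 26 by voom. In 6 genes (0.0408%) SZ-A went further in the direction of the diet, and in 165 (1.12%) SZ-A changed a gene that differed by less than 0.25 on the log2 scale between HFD and NC without a call. These classes are small and moved with single mice. Above both, 3 to 27 genes stood, fewest without SZ-A mouse 3 and most without SZ-A mouse 2. The count was 5 without HFD mouse 5, 6 without SZ-A mouse 1 or 4, 8 without HFD mouse 1, 2 or 3 or NC mouse 2, and 9 without NC mouse 1 or SZ-A mouse 6. With NC mouse 6 left out, 13 of the 16 remained, and with SZ-A mice 2 and 7 left out as well all 16 remained among 70. 1 gene was below both without NC mouse 3, NC mouse 6 or HFD mouse 2, and 25 without SZ-A mice 2 and 7. The class of little diet change held 74 to 107 genes without HFD mouse 1, 2, 3 or 5 or SZ-A mouse 1, 3 or 4, 267 without SZ-A mouse 5, 472 without SZ-A mouse 2 and 584 without both SZ-A mice 2 and 7. Further along the diet direction, 1 to 3 genes stood without HFD mouse 1, 2, 3, 4, 5 or 7 or SZ-A mouse 1, 3, 4 or 7.

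Klf14, a transcription factor of adipocyte metabolism, lay at 2.45 to 10.3 FPKM (median 3.93) in SZ-A, 0.68 to 3.16 FPKM (median 2.3) in HFD and 0.0225 to 3.02 FPKM (median 1.25) in NC mice. Its log2 difference was 1.06 from HFD (SE 0.30, adjusted p = 0.019) and 1.48 from NC (SE 0.36, adjusted p = 0.033), or 1.25 (adjusted p = 0.048) from NC without NC mouse 6. Gabrr2, a subunit of GABA-gated chloride channels, was 4.02 to 13.1 FPKM (median 7.53), 0.617 to 5.94 FPKM (median 3.56) and 0.13 to 5.19 FPKM (median 1.3) in the same order. It differed by 1.14 from HFD (SE 0.33, adjusted p = 0.022) and was not called without HFD mouse 5 (adjusted p = 0.052). In both genes SZ-A mice overlapped the HFD range, 5 and 4 of the 7 lying above it. Grtp1, a regulator of small GTPases, lay at 2.5 to 4.8 FPKM (median 3.87) in SZ-A, 1.21 to 3.03 FPKM (median 2.04) in HFD and 1.25 to 3.0 FPKM (median 1.8) in NC mice (0.70, SE 0.16, adjusted p = 0.0061). Pde7a, which breaks down cyclic AMP, lay at 8.09 to 12.8 FPKM (median 10.1) under SZ-A, 3.41 to 9.68 FPKM (median 7.7) under saline and 3.47 to 7.74 FPKM (median 4.83) in NC mice (0.58, SE 0.18, adjusted p = 0.029). Its call against HFD was lost without HFD mouse 5 or SZ-A mouse 1 or 3 (adjusted p = 0.060 to 0.067) and with the epididymis marker level as a covariate (adjusted p = 0.084).

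Further along the diet direction stood Cacna1e, a voltage-gated calcium channel, Got1l1, a relative of cytosolic aspartate aminotransferase, and Dnajb13, a chaperone known from cilia and sperm. Cacna1e, a low transcript, lay at 0.0109 to 0.95 FPKM (median 0.363) in NC, 0.345 to 1.57 FPKM (median 1.01) in HFD and 1.04 to 2.41 FPKM (median 2.05) in SZ-A mice. It rose by 0.52 with the diet (SE 0.17, adjusted p = 0.026) and by a further 0.55 with SZ-A (SE 0.15, adjusted p = 0.018), and stayed called in both without NC mouse 6. Its SZ-A step had an adjusted p of 0.054 with the mitochondrial share as a covariate, a setting that left 0 genes in this class. Got1l1 lay at 0.565 to 1.18 FPKM (median 1.02), 0.677 to 3.66 FPKM (median 2.13) and 2.88 to 4.62 FPKM (median 3.68) in that order, with steps of 0.63 (adjusted p = 0.022) and 0.66 (adjusted p = 0.024). The step by SZ-A lost its call without HFD mouse 5 (adjusted p = 0.056) or SZ-A mouse 3 (adjusted p = 0.051), and with the epididymis or the mitochondrial covariate (adjusted p = 0.10 and 0.064). Dnajb13 had steps of 0.96 (adjusted p = 0.0014) and 0.58 (adjusted p = 0.049), and its SZ-A step kept its call only without HFD mouse 6 or SZ-A mouse 2 among mice left out singly, and lost it after quantile normalization, with voom, with all 3 groups in 1 fit and with the mitochondrial covariate (adjusted p = 0.054, 0.059, 0.065 and 0.17). In all 3 the SZ-A and HFD ranges overlapped. The other 3 of this class, F730043M19Rik, Gm28802 and Gm31814, are not annotated as protein-coding genes, and Gm31814 left the class without NC mouse 6.

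Genes that SZ-A raised with little diet change included Atp2a3, a calcium pump of the endoplasmic reticulum, at 19.5 to 57.1 FPKM (median 30.1) in SZ-A, 7.35 to 21.6 FPKM (median 16.6) in HFD and 2.21 to 26.5 FPKM (median 18.4) in NC mice (1.10, SE 0.29, adjusted p = 0.014; adjusted p = 0.073 with all 3 groups in 1 fit). Ndrg2, a gene of differentiated cells, lay at 55.3 to 141 FPKM (median 71.8), 18.8 to 56.9 FPKM (median 49.2) and 32.1 to 73.7 FPKM (median 49.8) (1.02, SE 0.29, adjusted p = 0.02). Without NC mouse 6, both Atp2a3 and Ndrg2 differed between HFD and NC by more than the limit of this class. Ltc4s, which makes leukotriene C4 and was the single riser of the eicosanoid list, lay at 23 to 120.4 FPKM (median 51.9), 15.3 to 35.4 FPKM (median 25.2) and 5.82 to 50.8 FPKM (median 22.1) (1.03, SE 0.30, adjusted p = 0.024), and had an adjusted p of 0.054 without HFD mouse 1 or HFD mouse 5, 0.066 with all 3 groups in 1 fit and 0.12 with the mitochondrial covariate. Plin5, described above, was also higher than in NC in the median, 13.6 against 8.11 FPKM, without a call between them (log2 difference 0.65, SE 0.33, adjusted p = 0.30).

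**Figure D5:**
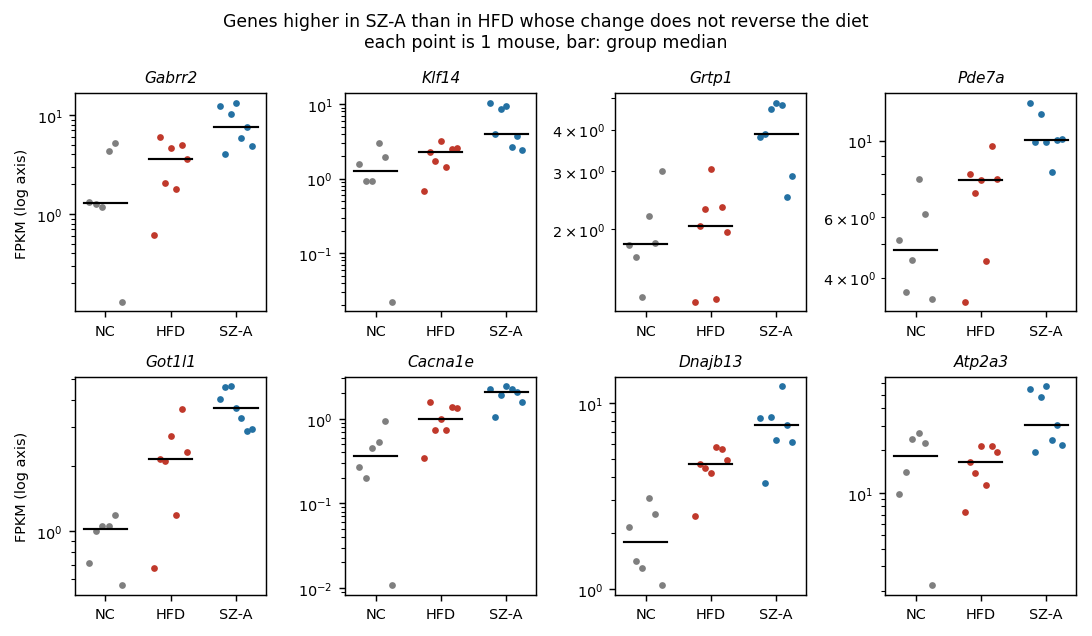
FPKM in each mouse (log axis) of 8 genes that SZ-A raised over HFD and whose change does not reverse the diet by the rules used, with bars at the group medians. For Atp2a3, as for Ndrg2, this holds only with NC mouse 6 included. SZ-A medians are the highest of the 3 groups in each panel, for example 3.93 FPKM for Klf14 against 2.3 in HFD and 1.25 in NC, while single mice of the groups overlap.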

How the data were processed

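Poly(A) RNA of the eWAT of 20 mice was sequenced in paired ends on a NovaSeq instrument. Reads were aligned by the authors to GRCm38 with HISAT2, and the submitters' processing notes name featureCounts 1.5.0-p3. The annotation release and the filter that left 14776 genes are not given in the sources used here. The authors deposited 1 table of FPKM values with 1 column per mouse, all of them above 0. With gene lengths of GENCODE M21, to which 14770 genes were matched, 95.9% to 96.3% of the low values per mouse came out within 0.01 of a whole read. The read totals given come from this recovery, in which the scale of each library is an estimate, and whether a read or a pair was counted was not settled. The number of mice limits the precision.

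Groups came from the labels, which give 6 NC, 7 HFD and 7 SZ-A mice. limma 3.58.1 (R 4.3.3) was fitted to log2(FPKM + 1) of the mice compared, with lmFit and eBayes(trend = TRUE), leaving out genes whose mean was under 0.1 FPKM, and p-values were adjusted by Benjamini-Hochberg over all genes tested. Every adjusted p is from limma. No gene list was tested, and no columns of the authors' own comparisons were used. Exact permutation tests over 3432 regroupings and all tables were made with SciPy 1.17.1, NumPy 2.4.6 and pandas 2.3.3 under Python 3.11.15, and figures with matplotlib 3.10.9. The fit was tested on simulated data with known changes.

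The lists and the members named were chosen with earlier results of these data known. Genes with values are the largest rises and falls past a log2 change of 1.5 whose groups did not overlap, the members of each list with the smallest adjusted p, the genes with the largest differences in each class beyond the diet, and factors the study measured otherwise. Some genes that the rule names are not reported here. Genes outside that rule are marked as chosen after their values were seen. Promoters are 250 bases before RefSeq transcript starts. Alternatives were another pseudocount, filter, scaling or normalization, voom, covariates, all groups in 1 fit, a block, and mice left out. Nothing says that cages or litters were kept apart, so p-values measure the spread between these mice.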

Additional observations from a re-analysis of the deposited data

Results flagged for a closer look

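Within a group of 6 or 7 mice, the gap between the most extreme mouse and its neighbour was divided by the range of the group, and a ratio above Dixon's critical value marks a mouse far from the others. Of 262 groups of values looked at, 19 passed, and chance alone passes about 1 in 20. In 9 genes SZ-A mouse 6 was far above the other treated mice: Siglec1 (0.673), Axl (0.571), Col6a3 (0.599), Adam19 (0.604), Mcm6 (0.694), Steap3 (0.727), Asah1 (0.588), Mgat5 (0.83) and Slc6a6 (0.617). SZ-A mouse 5 was far above them in Oasl2 (0.687) and Apoc1 (0.593). HFD mouse 1 stood highest in Cyp1b1 (0.619) and lowest in Dnajb13 (0.599) and Hbb-bs (0.682), and HFD mouse 5 highest in Angpt2 (0.582). NC mouse 6 was far below the other chow-fed mice in Cfd (0.746), Lep (0.685), Adipoq (0.779) and the adipocyte marker level (0.731).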

How the results depend on the processing

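Of the genes named with a difference, Lep, which was not called, changed sign under 9 of 26 alternatives (-0.207 to 0.494), and the others kept their direction; the epithelial marker Cdh1 was lower with the epididymis covariate (-0.46). List medians near 0 crossed it under some alternatives: fatty acid uptake (-0.0509 to 0.0507), cholesterol synthesis (-0.194 to 0.154), insulin signalling (-0.0752 to 0.172), MHC class I (-0.119 to 0.142), TGF-β (-0.161 to 0.0753), eicosanoids (-0.211 to 0.0459), stress response (-0.247 to 0.153) and circadian clock (-0.0533 to 0.0875). The epididymis markers had a median of -0.0123 with their own level as the covariate, and the other medians kept their sign. Risers and fallers past a log2 change of 1.5 numbered 189 and 148 with a pseudocount of 0.1, 264 and 194 with voom, and 755 and 1083 past a fold change of 1.5. Such risers were 27 with all 3 groups in 1 fit, 92 with the epididymis covariate, 25 with the mitochondrial covariate and 72 without SZ-A mice 2 and 7 (with or without NC mouse 6). Risers of any size were 725 with all 3 groups and 750 with the mitochondrial covariate. Genes above both other groups numbered 8 after quantile normalization, 10 with voom or the mitochondrial covariate, 6 with the epididymis covariate, 53 without SZ-A mice 2 and 7, and 70 also without NC mouse 6. Genes below both were 2, 1, 25 and 26 after quantile normalization, with the mitochondrial covariate, and without these 2 or 3 mice. Genes further along the diet direction were 27 with the epididymis covariate, 0 with the mitochondrial covariate, 37 without the 2 mice and 33 without the 3. Genes with little diet change were 63 with all 3 groups, 104 with voom, 492 with the epididymis covariate, 584 without the 2 mice, 471 without the 3, and 396 with a limit of 0.5. The cause of these shifts was not tested. Leaving out 1 mouse gave 863 to 1902 risers, 1489 to 2394 fallers, 27 to 70 and 51 to 128 past the limit, 3 to 27 above both, 0 to 1 below both, 1 to 8 further along and 74 to 472 with little diet change. With a replicate block, the number as a factor, 41 rose and 82 fell past the limit, and 1029 and 1590 at any size. In that fit 1 gene stood above both, 1 further along, and 57 showed little diet change. Over the 7 pairs of HFD and SZ-A mice the correlation of deviations ran from -0.389 to 0.371, with 3 above 0.1. In these pairs 0 mice correlated best with their own number. So few pairs cannot exclude a weak pairing by number. Under the block Acacb, Pck1, Gpx4, Insr, Gabrr2, Pde7a, Got1l1, Cacna1e and Dnajb13 were not called (adjusted p = 0.051 to 0.061). List counts of 4 or fewer often changed when 1 mouse was left out. The alternatives without SZ-A mice 2 and 7, and without each NC mouse, were chosen after seeing the data. Changes of low genes are limited by the pseudocount.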
